A study of Mus musculus with 24 samples.

Results

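The gene Trp53 and 8 genes known as targets of its product, the transcription factor p53, were followed through normal thyroid and 3 kinds of thyroid tumour in mice. The genes were Trp53, Cdkn1a, Mdm2, Ccng1, Phlda3, Bax, Trp53inp1, Sesn2 and Perp, and they were found by their symbols in the annotation of the array. Of these 9 genes, 7 had a named probe set, of 12394 genes measured in all, and they were read by 13 probe sets. Trp53 itself and Bax, which encodes a protein that permeabilises mitochondria during apoptosis, were not analysed here. The targets therefore stand without a reading of the gene that controls them.

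p53 is kept at a low level in unstressed cells by Mdm2, a ubiquitin ligase that marks it for degradation, and it accumulates after DNA damage, oncogene activation or nutrient stress. As a tetramer it binds DNA elements made of a pair of short decamers and switches on genes for cell cycle arrest, apoptosis, DNA repair, metabolism and its own restraint. Loss of p53 function is a known feature of anaplastic thyroid cancer and is uncommon in the papillary form. Several of these targets are also switched on by other factors, so their level is not a reading of p53 activity alone.

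RNA was hybridised to 24 Affymetrix Mouse430A_2 arrays, and the values are log2 intensities. The groups were 6 pools of normal glands, 4 papillary cancers (PTC, which keep thyroid features), 5 anaplastic cancers (ATC, which have lost them) and 9 recurrent tumours, taken at baseline from several mouse models. The study concerns resistance to BRAF inactivation, with BRAF a kinase of the MAPK cascade. The titles of 4 normal pools carry WT and those of the other 2 carry Cre. Beyond that the labels used here give no strain, age, genotype, driver promoter or treatment for single arrays. The same labels record no growth or treatment protocol, so it is not known which arrays carry an engineered Trp53 or Braf allele. They do not say that the tumours came from separate animals, so a p-value here only sets a difference between groups against the spread among these samples. That spread may be technical, and pools of normal glands and tumours share a common estimate of it.

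The median log2 intensity of an array was 7.38 to 7.58, and precision is limited by how many arrays there are. Titles fall into a JK series (4 normal pools that also carry WT, 4 PTC, 2 ATC and 3 recurrent arrays), 2 normal pools with Cre and arrays titled with a bare number (3 ATC and 6 recurrent). Of 9 thyrocyte markers 7 were measured, and their mean log2 intensity was 10.39 to 10.97 in normal pools, 8.34 to 9.17 in PTC, 5.23 to 8.10 in ATC and 4.95 to 8.55 in recurrent tumours. Normal pool 5 stood apart, with an adipocyte marker mean of 8.30 against 10.68 to 11.01 in the other pools and a macrophage marker mean of 9.14 against 7.51 to 7.82. Recurrent array 2 had a Braf level of 11.14, inside the ATC range of 10.29 to 11.98, while the other recurrent arrays lay between 5.62 and 7.14. For Gapdh, the signal of the 3' probe set less that of the 5' one, which reflects RNA integrity, was 1.11 to 1.60 in PTC and 0.64 to 0.98 in normal pools. In ATC and recurrent tumours it was 0.36 to 1.07 on JK arrays and -0.018 to 0.17 on bare-number arrays. In whole tissue, fewer cells of a type and less RNA per cell cannot be told apart.

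Sequences upstream of 4 members are shown because p53 acts through decamers near its targets. They come from RefSeq (assembly GRCm38.p6), which held windows for 5 of the 7 measured members, and each line gives the 250 bases before a start site, 5' to 3' on the gene's strand. Capitals mark each 10-base stretch with an exact match to the p53 decamer, a motif that reads the same on both strands. Cdkn1a has 2 start sites in the table, and the upstream one is shown (chr17:29090729-29090978, plus strand), then Mdm2 (chr10:117710759-117711008, minus strand), Ccng1 (chr11:40755287-40755536, minus strand) and Sesn2 (chr4:132510457-132510706, minus strand).
Cdkn1a: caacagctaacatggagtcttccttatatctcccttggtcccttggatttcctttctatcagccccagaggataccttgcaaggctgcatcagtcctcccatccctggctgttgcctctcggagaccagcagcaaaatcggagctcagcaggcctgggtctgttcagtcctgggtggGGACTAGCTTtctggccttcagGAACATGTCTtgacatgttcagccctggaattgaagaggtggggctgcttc
Mdm2: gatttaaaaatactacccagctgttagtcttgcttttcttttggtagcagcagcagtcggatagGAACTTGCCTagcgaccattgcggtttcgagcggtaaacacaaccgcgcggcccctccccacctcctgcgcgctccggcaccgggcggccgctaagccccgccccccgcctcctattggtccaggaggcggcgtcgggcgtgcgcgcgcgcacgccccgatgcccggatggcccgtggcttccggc
Ccng1: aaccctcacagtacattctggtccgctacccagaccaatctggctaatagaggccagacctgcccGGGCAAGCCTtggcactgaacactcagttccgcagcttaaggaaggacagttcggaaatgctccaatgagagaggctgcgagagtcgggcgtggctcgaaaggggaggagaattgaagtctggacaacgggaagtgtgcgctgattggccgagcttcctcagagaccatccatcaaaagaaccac
Sesn2: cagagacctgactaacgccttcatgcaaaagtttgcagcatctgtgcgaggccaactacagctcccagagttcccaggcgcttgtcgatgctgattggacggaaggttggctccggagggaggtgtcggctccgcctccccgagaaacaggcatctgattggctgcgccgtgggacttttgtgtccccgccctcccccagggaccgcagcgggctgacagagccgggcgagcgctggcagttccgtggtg
The Cdkn1a window held 2 decamers, which begin 73 and 51 bases before the start and are separated by 12 bases. The Mdm2 window held 1 decamer, 186 bases before the start, and the Ccng1 window 1, at 185 bases. The Sesn2 and Phlda3 windows and the window of the other Cdkn1a start held none. Among 32851 windows of 300 bases (250 before and 50 after a start), 8.36% held at least 1 decamer. In 0.0731% (24 windows) there were 2 exact decamers within a spacer of up to 13 bases, the upstream Cdkn1a window among them. A match is a stretch of letters, not a site shown to be bound. Only exact matches were searched for, so decamers with any mismatch inside these windows are neither marked nor counted. The marked stretches may therefore be only a part of an element. Elements further away or inside a gene lie outside these windows.

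Few of the targets were called as different between groups in the fit of all groups. With limma's moderated test on all 24 arrays and Benjamini-Hochberg adjustment over 12394 genes, called at an adjusted p under 0.05, PTC differed from normal in 1 of the 7 measured members, Cdkn1a, which rose. Of all genes, 14.2% were called in that comparison, 6.16% as higher and 8.03% as lower. ATC differed from normal in 2 members, with Cdkn1a higher and Sesn2 lower, against 34.3% of all genes (15.1% higher, 19.1% lower). Recurrent tumours differed from normal in 2 members, Cdkn1a (higher) and Sesn2 (lower), against 33.8% of all genes (14.5% higher, 19.3% lower). These 3 comparisons share the 6 normal pools. ATC differed from PTC in 1 member, Sesn2, which was lower, against 17.2% of all genes (7.81% higher, 9.35% lower). Recurrent tumours differed from ATC in 0 of the 7 members by limma, also 0 at an unadjusted p under 0.05, against 4.32% of all genes (1.19% higher, 3.12% lower). In this fit of all groups the members' counts thus lie near or below the share of all genes called. The counts depend on that choice. With each comparison's 2 groups alone, limma called 4, 4, 1, 5 and 0 members in the same order. All genes called then numbered 5676, 6317, 3148, 4587 and 99. The median difference of the 7 members was 0.12 in PTC against normal, -0.20 in ATC against normal, -0.64 in recurrent tumours against normal, -0.64 in ATC against PTC and -0.09 in recurrent tumours against ATC. Over all genes the medians were -0.0098, -0.0823, -0.0345, -0.0572 and 0.0501 in the same order.

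**Figure D1:**
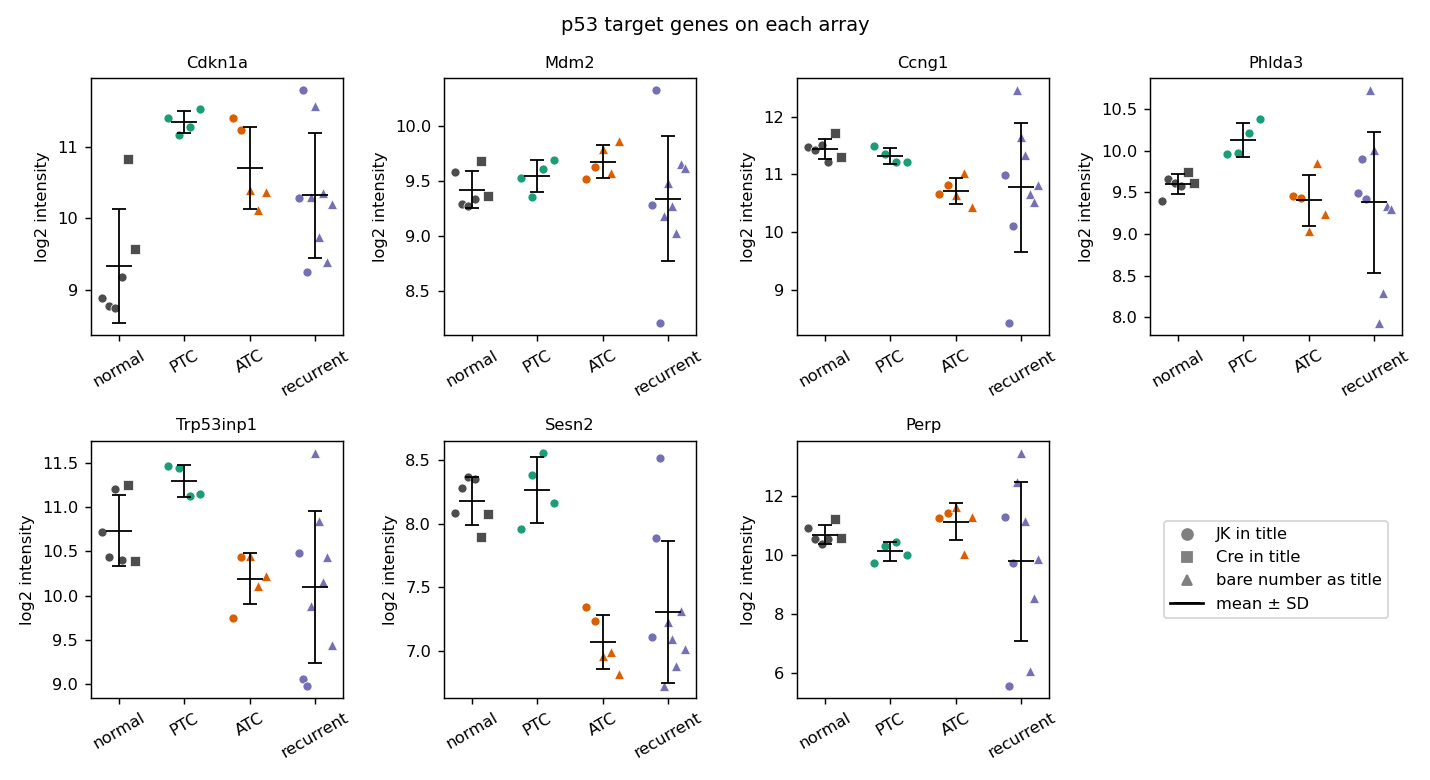
Log2 intensity of the 7 measured p53 targets on each of the 24 arrays by group (1 panel per gene, 1 point per array, marker shape by title series, black line and bar for mean and SD). All 4 PTC arrays lie above all 6 normal pools for Cdkn1a (11.17 to 11.54) and Phlda3 (9.96 to 10.37), and all 5 ATC arrays lie below the pools for Sesn2 (6.82 to 7.35); recurrent tumours spread most for Perp (5.55 to 13.46).

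Cdkn1a encodes p21, the inhibitor of cyclin-dependent kinases through which p53 stops the cell cycle. Its log2 intensity was 8.88, 8.77, 8.75, 9.17, 10.84 and 9.57 in normal pools 1 to 6, and 11.41, 11.17, 11.29 and 11.54 in the 4 PTC. It was 11.40, 11.25, 10.40, 10.12 and 10.37 in ATC 1 to 5. In the 9 recurrent tumours it ran from 9.25 to 11.80 with a median of 10.29. Every PTC lay above every normal pool, whereas ATC and recurrent tumours overlapped the pools, through normal pool 5 in the case of ATC. The 2 ATC of the JK series lay within the range of the PTC, and the 3 with bare-number titles were lower.

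PTC exceeded normal in Cdkn1a by 2.02 (log2, SE 0.45), a 4.06-fold difference, with a limma adjusted p of 0.00377. ATC exceeded normal by 1.38 (SE 0.42), or 2.60-fold, with a limma adjusted p of 0.0145. Recurrent tumours exceeded normal by 0.99 (SE 0.37), or 1.99-fold, with a limma adjusted p of 0.0414. The third call was the least secure, because it was lost in 11 of 15 fits that left out 1 array (limma adjusted p up to 0.0997). It was also lost with the 2 groups alone, with the title series as a block (0.98) and on quantile normalization again (0.94), at limma adjusted p of 0.0958, 0.0582 and 0.0506. Without normal pool 5 and recurrent arrays 2 and 3 it held, at 1.24 (limma adjusted p = 0.0029). The order of mean levels was PTC 11.35 ± 0.16 (SD, n = 4), ATC 10.71 ± 0.58 (SD, n = 5), recurrent tumours 10.32 ± 0.88 (SD, n = 9) and normal 9.33 ± 0.80 (SD, n = 6). PTC and ATC, next to each other in that order, differed by -0.64 (95% interval -1.62 to 0.33, limma adjusted p = 0.385), and within the JK series by -0.03 (limma adjusted p = 0.984).

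The other probe set of Cdkn1a gave 1.67, 1.31 and 1.17 for PTC, ATC and recurrent tumours against normal. Limma fitted to every probe set called each of the 3 (adjusted p = 0.0198, 0.0246 and 0.0209), beside 11.8%, 31.5% and 32.1% of all probe sets. Within the JK series the rises by the main probe set were 2.46, 2.43 and 1.55 (limma adjusted p = 0.000798, 0.00245 and 0.0122). The mean log2 intensity of 7 macrophage markers was 7.51 to 9.14 in normal pools, 8.61 to 9.57 in PTC, 9.79 to 10.6 in ATC and 7.10 to 10.8 in recurrent tumours. Of these markers limma called 1, 6 and 4 higher in PTC, ATC and recurrent tumours than in normal, against 6.16%, 15.1% and 14.5% of all genes. Pool 5 was the highest normal pool both in these markers and in Cdkn1a, and the part of such cells in the Cdkn1a levels was not tested. By deviations from group means over the 24 arrays, the genes most like Cdkn1a were Iffo2 (r = 0.82), Prkx (0.80) and Atp6v1e1 (0.80), values that describe these arrays and rest on within-group spread.

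**Figure D2:**
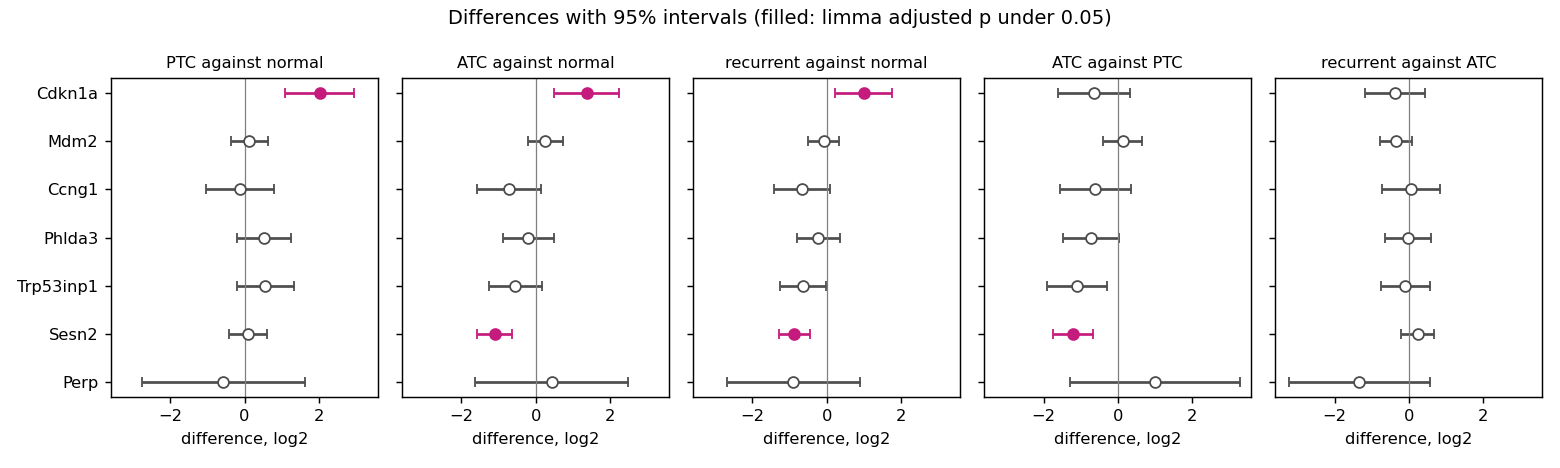
Difference in log2 intensity of each measured member in 5 comparisons (points, with 95% intervals as bars; filled points have a limma adjusted p under 0.05). Filled points stand at Cdkn1a in the 3 comparisons with normal (2.02, 1.38 and 0.99) and at Sesn2 in ATC and recurrent tumours against normal (-1.11 and -0.87) and in ATC against PTC (-1.20).

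Mdm2, the ligase that restrains p53 and is itself a p53 target, was read differently by its 2 probe sets. The brighter one, used for the gene, was 9.28 to 9.68 in normal pools, 9.36 to 9.69 in PTC, 9.52 to 9.87 in ATC and 8.21 to 10.33 in recurrent tumours, with a median of 9.28 in the last. All 4 groups overlapped, and limma called no difference in the main fit. ATC against normal was 0.26 (95% interval -0.22 to 0.73, adjusted p = 0.419), and PTC against normal was 0.12 (95% interval -0.38 to 0.63, adjusted p = 0.838). Without normal pool 5 and recurrent arrays 2 and 3, ATC against normal was 0.31 and passed (limma adjusted p = 0.049). It also passed with array weights, at 0.34, and with the mean of all probe sets, at 0.72 (limma adjusted p = 0.0162 and 0.0117). By the brighter probe set, recurrent array 2 was the highest of all arrays and recurrent array 3 the lowest. By deviations from group means over 24 arrays the genes most like this probe set were Nsun2 (r = 0.90), Rasa1 (0.90) and Ube2d3 (0.88).

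The dimmer Mdm2 probe set, singled out after its values were seen, separated ATC from normal pools and PTC, but not from recurrent tumours. It was 7.01, 6.64, 6.73, 6.81, 6.86 and 6.60 in normal pools and 6.94, 6.86, 7.11 and 7.18 in PTC. In ATC it was 7.96, 7.56, 8.08, 8.05 and 8.12, so all 5 ATC lay above every normal pool and every PTC. In recurrent tumours 1 to 9 it was 6.98, 8.48, 6.81, 7.67, 7.89, 7.78, 7.55, 8.06 and 8.06, and all but arrays 1 and 3, both of the JK series, lay above the pools.

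By this probe set ATC exceeded normal by 1.18 (SE 0.22, limma adjusted p = 0.000256) and PTC by 0.93 (SE 0.24, limma adjusted p = 0.00964). Recurrent tumours exceeded normal by 0.92 (SE 0.19, limma adjusted p = 0.000706). PTC differed from normal by 0.25 (95% interval -0.23 to 0.73, limma adjusted p = 0.601). Recurrent tumours and ATC differed by -0.26 (95% interval -0.67 to 0.16, limma adjusted p = 0.573), where 3.35% of all probe sets were called, against 17.2% in ATC against PTC. The 3 calls held whichever single array was left out. Within the JK series the differences were 0.96, 0.73 and 0.62 in the same order and were not called (limma adjusted p = 0.0703, 0.225 and 0.149), with 2 ATC and 3 recurrent arrays there. With the bare-number titles as a block ATC against PTC was 0.70 (limma adjusted p = 0.0625). Which transcripts each probe set reads was not analysed here, so the 2 readings stand side by side.

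**Figure D3:**
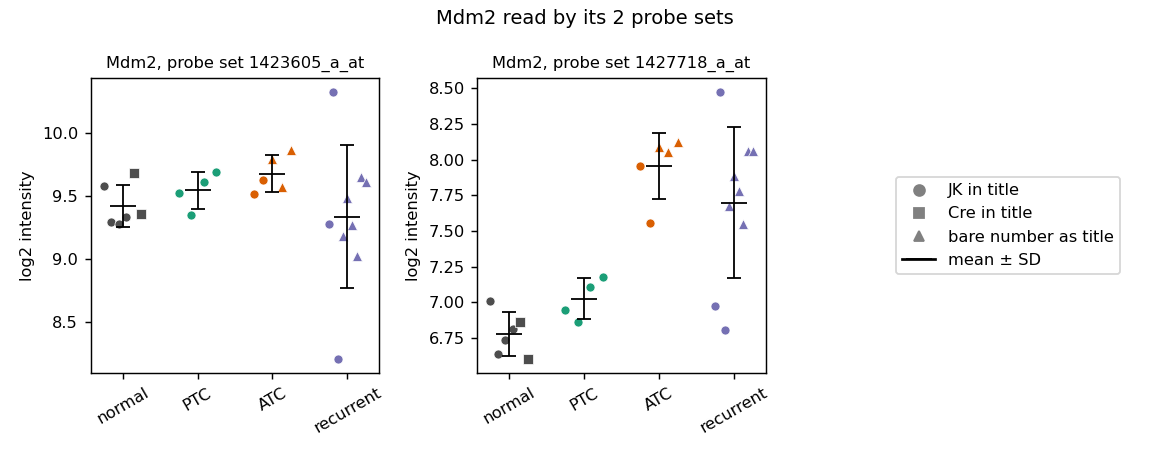
Log2 intensity of Mdm2 by its 2 probe sets on each array, by group (1 point per array, marker shape by title series, black line and bar for mean and SD). By the brighter probe set all groups overlap, while by the dimmer one the 5 ATC (7.56 to 8.12) lie above the 6 normal pools (6.60 to 7.01) and the 4 PTC (6.86 to 7.18).

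Ccng1 encodes cyclin G1, a p53 target that recruits a phosphatase to Mdm2. Its log2 intensity was 11.22 to 11.72 in normal pools, and 11.50, 11.36, 11.21 and 11.21 in PTC. In ATC it was 10.67, 10.82, 10.64, 11.02 and 10.44, below every normal pool and every PTC. In recurrent tumours 1 to 9 it was 10.99, 8.43, 10.12, 12.46, 11.64, 11.33, 10.67, 10.53 and 10.81, which includes both the highest and the lowest array of the series.

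In the fit of all groups ATC differed from normal in Ccng1 by -0.72 (95% interval -1.59 to 0.14), which limma did not call (adjusted p = 0.192). The difference from PTC was -0.60 (95% interval -1.56 to 0.35, limma adjusted p = 0.409). Fitted with only the 2 groups concerned, both passed (limma adjusted p = 0.000373 and 0.00617) in fits that do not use the spread of recurrent tumours. ATC against normal also passed with the bare-number titles as a block, at -1.24 (limma adjusted p = 0.0287). The other 2 probe sets of Ccng1 did not carry the gap between ATC and PTC, with differences of 0.11 and 0.13 in the opposite direction, and gave -0.56 and -0.21 for ATC against normal, neither called. Recurrent tumours against normal gave -0.67 (95% interval -1.41 to 0.08, limma adjusted p = 0.166), -0.18 without normal pool 5 and recurrent arrays 2 and 3, and passed at -1.24 with the bare-number titles as a block and at -1.56 within the JK series (limma adjusted p = 0.0203 and 0.012).

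Phlda3 encodes a small membrane-binding protein that restrains the survival kinase Akt. It was 9.40, 9.65, 9.62, 9.58, 9.75 and 9.61 in normal pools and 9.96, 9.97, 10.22 and 10.37 in PTC. ATC lay at 9.46, 9.44, 9.03, 9.85 and 9.25, and recurrent tumours between 7.93 and 10.73 with a median of 9.42. PTC stood above all normal pools and all ATC, and recurrent tumours covered the range of every other group. PTC exceeded normal by 0.53 (95% interval -0.20 to 1.25, limma adjusted p = 0.376), and ATC differed from PTC by -0.73 (95% interval -1.48 to 0.03, limma adjusted p = 0.183). Neither was called with the spread of all groups. Each passed with only its 2 groups in the fit (limma adjusted p = 0.00149 and 0.00839) and within the JK series (0.0112 and 0.0196). Its single probe set gave no second reading.

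Trp53inp1 encodes a nuclear protein that takes part in p53-driven apoptosis and in autophagy. It was 10.72, 10.44, 11.20, 10.41, 11.25 and 10.39 in normal pools and 11.47, 11.44, 11.13 and 11.15 in PTC. In ATC it was 9.75, 10.43, 10.45, 10.11 and 10.22, so every ATC lay below every PTC, and 2 of the 5 ATC overlapped the normal pools. Recurrent tumours ran from 8.98 to 11.62 with a median of 10.16. The gap between ATC and PTC was -1.10 (SE 0.39, 95% interval -1.90 to -0.30), with a limma adjusted p of 0.0518, just outside the threshold. It passed with the 2 groups alone (limma adjusted p = 0.000758), without normal pool 5 and recurrent arrays 2 and 3 (0.0128), and with the title series or the bare-number titles as a block (-1.39 and -1.48, limma adjusted p = 0.0214 and 0.0157). Within the JK series it was -1.21 (limma adjusted p = 0.0567). Recurrent tumours against normal gave -0.64 (limma adjusted p = 0.112), which passed with the title series as a block (-0.80, limma adjusted p = 0.0446), with the bare-number titles as a block (-1.05, 0.0224) and within the JK series (-1.19, 0.0154). The second probe set was dim, at 4.24 to 5.46 over all arrays, and gave -0.43 (limma adjusted p = 0.150).

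Sesn2 encodes sestrin 2, a stress-induced protein that restrains mTORC1 signalling and supports antioxidant defence, and it was the member whose level fell. It was 8.09, 8.29, 8.37, 8.36, 7.89 and 8.08 in normal pools and 7.96, 8.39, 8.56 and 8.17 in PTC. In ATC it was 7.35, 7.24, 6.96, 6.99 and 6.82, below every normal pool and every PTC. In recurrent tumours 1 to 9 it was 7.11, 7.89, 8.52, 6.72, 7.23, 7.10, 6.88, 7.31 and 7.02. Arrays 2 and 3, both of the JK series, were the highest, and the other 7 lay at or below the highest ATC.

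ATC fell by 1.11 from normal in Sesn2 (SE 0.23), a 2.15-fold difference, with a limma adjusted p of 0.000818, and differed from PTC by -1.20 (SE 0.26), or 2.30-fold (limma adjusted p = 0.00255). Recurrent tumours differed from normal by -0.87 (SE 0.20), or 1.83-fold, with a limma adjusted p of 0.00205, and by -1.18 without normal pool 5 and recurrent arrays 2 and 3 (limma adjusted p = 9.81e-07). PTC and normal, the upper pair in the order of means, differed by 0.09 (95% interval -0.42 to 0.61, limma adjusted p = 0.893). The lower pair, recurrent tumours and ATC, differed by 0.24 (95% interval -0.21 to 0.68, limma adjusted p = 0.614). The second probe set gave -0.86 and -0.69 for ATC and recurrent tumours against normal and -0.73 for ATC against PTC (limma adjusted p = 0.000411, 0.000859 and 0.00783).

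Within the JK series Sesn2 was lower in ATC than in normal by -0.98 (limma adjusted p = 0.0267), while recurrent tumours, of which 3 belong to that series, differed by -0.44 (limma adjusted p = 0.214). A block for bare-number titles gave -0.73 and -0.45 (limma adjusted p = 0.0102 and 0.0831). Thyrocyte markers were lower than normal in the same groups, with 7 of the 7 measured called by limma in ATC and 7 of 7 in recurrent tumours. Of all genes, 19.1% and 19.3% were called lower there. These markers were also lower in PTC (4 of 7 called, against 8.03% of all genes), where Sesn2 was not. Recurrent array 4 had the highest thyrocyte mean of its group, 8.55, and the lowest Sesn2, 6.72. ATC 4, with the highest thyrocyte mean of the ATC, 8.10, had Sesn2 at 6.99. The part of thyrocyte content in the Sesn2 difference was not tested.

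Perp encodes a membrane protein of desmosomes, the junctions that hold epithelial cells together, and was named as an effector of p53-driven apoptosis. It was 10.36 to 11.22 in normal pools and 9.73, 10.28, 10.43 and 10.005 in PTC. In ATC it was 11.23, 11.43, 11.63, 10.04 and 11.27, with ATC 4 apart from the other 4. In recurrent tumours 1 to 9 it was 11.27, 5.55, 9.71, 12.46, 13.46, 11.15, 6.04, 8.54 and 9.85, an SD of 2.698. Limma called no difference in the fit of all groups. PTC against normal was -0.58 (95% interval -2.77 to 1.62, adjusted p = 0.826) and ATC against PTC 1.01 (95% interval -1.27 to 3.29, adjusted p = 0.585), while fits of those 2 groups alone called both (limma adjusted p = 0.0234 and 0.0263).

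Ccng1 and Perp were high on the same recurrent arrays. Over the 9 recurrent tumours their log2 intensities correlated with Pearson's r = 0.81 (two-sided exact permutation p = 0.0054, 0.113 after adjustment over 21 pairs of members) and Spearman's rho = 0.90 (exact permutation p = 0.00203, adjusted 0.0426). Without recurrent arrays 2 and 4, the farthest from the median in Ccng1, r was 0.68, and over the 6 bare-number arrays it was 0.79. No other pair of members had an adjusted p under 0.05 by either measure, so the relation passed by rank only.

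Markers of other tissues also differed among the recurrent arrays. Recurrent arrays 4 and 5, the highest in Perp (12.46 and 13.46), had keratinocyte marker means of 9.76 and 10.5, skeletal muscle means of 14.4 and 12.5, and parathyroid and C-cell means of 11.5 and 9.65. Arrays 2 and 7, the lowest in Perp, had keratinocyte means of 6.87 and 6.41, muscle means of 5.58 and 7.52, and parathyroid and C-cell means of 4.97 and 4.58. Other arrays departed from this pattern. Array 6 had Perp at 11.15 with a keratinocyte mean of 5.96, the lowest of the recurrent tumours. Array 1, with Perp at 11.27, had a keratinocyte mean of 9.06 but a parathyroid and C-cell mean of 5.53. Array 9, with Perp at 9.85, had a muscle mean of 12.9. The part of skin, muscle or other neck tissue in these levels was not tested. In ATC the keratinocyte mean was 7.20 to 8.98, against 5.95 to 6.23 in normal pools.

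**Figure D4:**
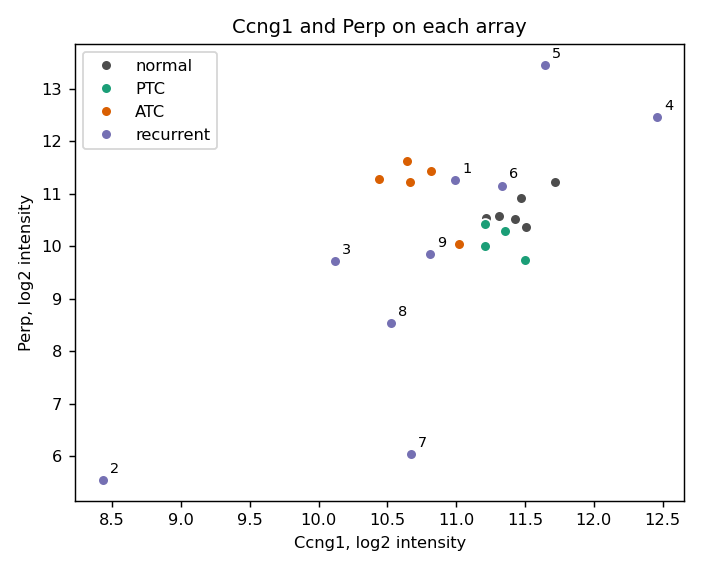
Perp against Ccng1 in log2 intensity, 1 point per array, coloured by group. Recurrent tumours stretch from array 2 (Ccng1 8.43, Perp 5.55) to arrays 4 and 5 (Perp 12.46 and 13.46), while normal, PTC and ATC arrays stay between 9.73 and 11.63 in Perp.

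The other genes of the pathway were taken from lists by role. Of 49 further p53 targets 41 were measured, and 7 were called in PTC against normal (5 higher, 2 lower), 17.1% against the 14.2% of all genes. In ATC against normal 20 were called (9 higher, 11 lower), 48.8% against 34.3% of all genes. In recurrent tumours against normal 19 were called (9 higher, 10 lower), 46.3% against 33.8%. ATC against PTC called 9 (2 higher, 7 lower), 22% against 17.2%, and recurrent tumours against ATC called 3, all lower, 7.32% against 4.32%. The targets thus moved in both directions, and their median differences from normal were 0.13, 0.05 and -0.06 in PTC, ATC and recurrent tumours.

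Among 9 growth arrest targets, Rprm, whose product reprimo holds cells before mitosis, rose in PTC. PTC averaged 9.20 ± 0.12 (SD, n = 4) and normal pools 5.34 ± 0.20 (SD, n = 6), a rise of 3.86 (limma adjusted p = 6.48e-13). ATC lay at 4.63 ± 0.22 (SD, n = 5), a difference from PTC of -4.57 (limma adjusted p = 1.91e-14). Rprm was the only one of the 9 called in PTC against normal. Plk3, a stress-responsive kinase, rose by 1.42 in ATC and 1.30 in recurrent tumours against normal (limma adjusted p = 0.0103 and 0.00774). Btg2, Gadd45a and Zmat3, which were looked up after the results were seen, had differences from normal between -0.41 and 0.83, none called.

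Among 10 apoptosis targets, Pmaip1, which encodes the BH3-only protein Noxa, rose most in ATC. ATC averaged 10.92 ± 0.28 (SD, n = 5) and PTC 6.64 ± 0.52 (SD, n = 4). Recurrent tumours averaged 8.73 ± 1.44 (SD, n = 9) and normal pools 5.39 ± 1.45 (SD, n = 6), with 1 pool at 8.33. The difference between ATC and normal was 5.53 (limma adjusted p = 2.54e-06), that between ATC and PTC was 4.28 (limma adjusted p = 0.000409), and recurrent tumours exceeded normal by 3.34 (limma adjusted p = 0.000155). Recurrent tumours were lower than ATC by a difference of -2.19 (limma adjusted p = 0.0486), a call lost in 11 of 14 fits without 1 array. Apaf1, the scaffold of the apoptosome, rose by 1.35 in ATC and 1.25 in recurrent tumours (limma adjusted p = 0.00506 and 0.00316). Aen, an apoptosis-linked nuclease, was called higher in PTC, ATC and recurrent tumours, but at least 1 of its other probe sets went the opposite way each time, and the call in PTC was kept in only 2 of 10 fits without 1 array. Bbc3, which encodes Puma, differed from normal by 0.15, -0.22 and -0.06 and was not called.

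Of 6 measured DNA repair targets, 4 were lower in ATC than in normal, where 19.1% of all genes were lower. In recurrent tumours 3 were lower and 1 higher, against 19.3% and 14.5% of all genes, and 3 were lower in ATC than in PTC, against 9.35%. Xpc, the damage sensor of nucleotide excision repair, averaged 8.89 ± 0.07 (SD, n = 6) on normal arrays and 8.78 ± 0.14 (SD, n = 4) on PTC arrays. It averaged 7.91 ± 0.19 (SD, n = 5) on ATC arrays and 7.89 ± 0.41 (SD, n = 9) on those of recurrent tumours. Its difference from normal was -0.99 in ATC and -1.002 in recurrent tumours (limma adjusted p = 0.000142 and 2.57e-05), and ATC differed from PTC by -0.88 (limma adjusted p = 0.00281). Rrm2b, the p53-induced subunit of ribonucleotide reductase, was lower than normal in PTC, ATC and recurrent tumours by -0.84, -0.98 and -1.01 (limma adjusted p = 0.00192, 7.15e-05 and 9.92e-06). Ddb2 and Ercc5, of the same repair route as Xpc, were lower in ATC than in PTC by -1.17 and -0.68 (limma adjusted p = 0.043 and 0.000738), the former in only 1 of 9 fits without 1 array.

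Of 8 measured metabolism and redox targets, 6 were called in ATC against normal, with 4 lower and 2 higher, against 19.1% and 15.1% of all genes. In PTC 2 were called (1 in each direction) and in recurrent tumours 4 (2 in each direction), 25% and 50% against 14.2% and 33.8% of all genes. By limma 0 were called in ATC against PTC, and 1, Ddit4, had an unadjusted p under 0.05 there. Sesn1, a relative of Sesn2, was lower than normal by -1.60 in ATC and -1.49 in recurrent tumours (limma adjusted p = 0.00157 and 0.000882). In PTC it was lower by -1.23 (limma adjusted p = 0.035), a call lost whichever array was left out. Sesn3, the remaining sestrin, was lower by -2.29 in ATC and -2.00 in recurrent tumours (limma adjusted p = 0.000122 and 0.000121). Ddit4, an mTORC1 inhibitor that hypoxia also induces, rose by 1.72 in PTC (limma adjusted p = 0.00102). Pank1, a coenzyme A synthesis enzyme, and Lpin1, a lipid phosphatase, were lower in ATC by -2.58 and -1.29 (limma adjusted p = 0.0175 and 0.0162), and the Lpin1 call was lost without ATC 3 or ATC 5 (limma adjusted p up to 0.0512).

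Of 8 surface and secreted targets measured, 4 were called in ATC against normal, 4 in ATC against PTC and 5 in recurrent tumours against normal, or 50%, 50% and 62.5% against 34.3%, 17.2% and 33.8% of all genes. Rap2b, a small GTPase, rose by 1.10, 1.64 and 1.05 in PTC, ATC and recurrent tumours against normal (limma adjusted p = 0.00687, 3.02e-05 and 0.000668). Thbs1, the matrix protein thrombospondin 1, rose by 1.79 in ATC (limma adjusted p = 0.0078), and by 1.15 within the JK series, where it was not called (limma adjusted p = 0.158), nor was it with the bare-number titles as a block (1.13, limma adjusted p = 0.0903). Cd82, a tetraspanin known as a metastasis suppressor, was lower in recurrent tumours by -1.15 than in normal and by -1.18 than in ATC (limma adjusted p = 0.00283 and 0.0238). Its other probe set gave -0.12 and -0.056 and was not called (limma adjusted p = 0.392 and 0.847). The call against ATC was lost with the 2 groups alone (limma adjusted p = 0.196), within the JK series (-1.12, limma adjusted p = 0.061) and without ATC 1, 2 or 5 (limma adjusted p up to 0.0783), and that against normal with the bare-number titles as a block (-0.81, limma adjusted p = 0.0578).

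**Figure D5:**
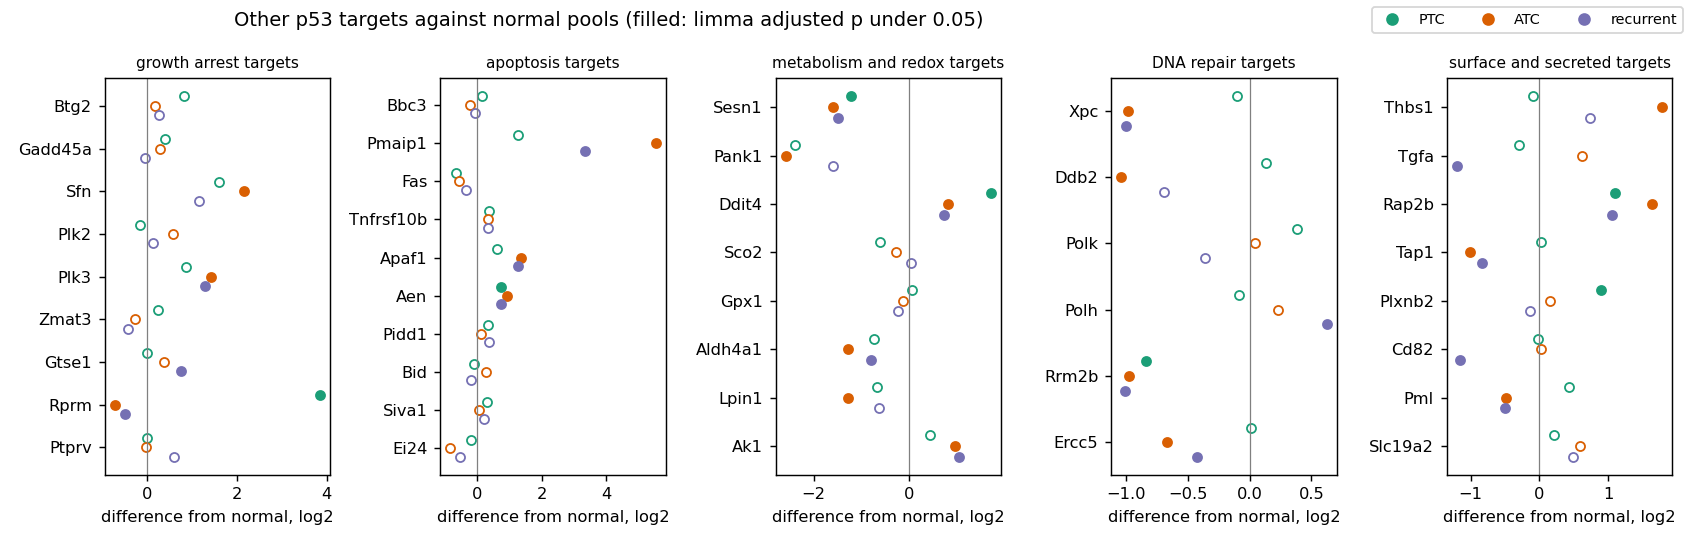
Difference from normal pools in log2 intensity for the 41 other p53 targets measured, by role and tumour group (filled points have a limma adjusted p under 0.05). The largest rises are Pmaip1 in ATC (5.53) and Rprm in PTC (3.86), and the DNA repair targets Xpc and Rrm2b lie to the left in ATC (-0.99 and -0.98) and recurrent tumours (-1.002 and -1.01).

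Upstream of p53, 15 of 18 regulators were measured, and 1, 5 and 4 of them were called in PTC, ATC and recurrent tumours against normal. These are 6.67%, 33.3% and 26.7% of the list, below the 14.2%, 34.3% and 33.8% of all genes. Cdkn2a, whose locus encodes the Mdm2 inhibitor p19Arf as well as p16Ink4a, averaged 4.89 ± 0.36 (SD, n = 6) on normal arrays and 8.10 ± 0.36 (SD, n = 5) on ATC arrays. It rose by 3.21 in ATC and 3.08 in recurrent tumours (limma adjusted p = 0.0027 and 0.0012), where it ran from 4.26 to 10.13. ATC exceeded PTC by 2.52 (limma adjusted p = 0.0467), a call kept in only 1 of 9 fits without 1 array. Chek1, a checkpoint kinase, rose by 1.23, 1.12 and 1.81 in PTC, ATC and recurrent tumours (limma adjusted p = 0.00287, 0.00136 and 1.54e-06), by its brightest probe set. Its other probe sets gave 0.88, 0.02 and 0.15 in PTC, none called. In ATC they gave 0.90 (called), -0.29 and -0.16, and in recurrent tumours 1.81 (called), -0.08 and 0.03. Ppm1d, the phosphatase Wip1 that shuts off p53, rose by 0.66 in recurrent tumours (limma adjusted p = 0.0098). Mdm4, the partner of Mdm2, differed from normal by 0.02, -0.59 and -0.64 and was not called (limma adjusted p = 0.985, 0.129 and 0.0569).

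Genes that p53 and p21 hold down through the DREAM complex, a repressor of cell cycle genes, rose for the most part in the 3 kinds of tumour, in which Cdkn1a was higher too. Of 14 measured, 8 rose in PTC, 12 in ATC and 13 in recurrent tumours against normal, against 6.16%, 15.1% and 14.5% of all genes. Their median differences were 1.64, 2.46 and 3.12, and over all genes -0.0098, -0.0823 and -0.0345. Birc5, which encodes survivin, rose by 2.25, 3.87 and 4.13 (limma adjusted p = 0.0189, 3.27e-05 and 2.59e-06). The proliferation marker Mki67 rose by 2.23 in PTC (limma adjusted p = 0.0189), and this and the Birc5 call in PTC were lost without PTC 1 or PTC 4.

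Of the other CDK inhibitors, 6 were measured, and 1, 3 and 2 were called in PTC, ATC and recurrent tumours against normal (16.7%, 50% and 33.3%, against 14.2%, 34.3% and 33.8% of all genes). Cdkn2a, counted above among the regulators, is 1 of them and was called in ATC and recurrent tumours. Cdkn2b, which encodes p15Ink4b, rose by 2.09, 3.06 and 1.47 (limma adjusted p = 0.00777, 4.53e-05 and 0.00952). In the BCL2 family, to which Bax belongs, 3, 6 and 6 of 9 were called (33.3%, 66.7% and 66.7%, against 14.2%, 34.3% and 33.8% of all genes). Bcl2, the founding survival gene, differed from normal by -1.69, -2.10 and -2.06 (limma adjusted p = 0.000239, 2.81e-06 and 5.17e-07). Bok, a pore-forming relative of Bax, rose by 2.77 in ATC and 1.53 in recurrent tumours (limma adjusted p = 1.33e-06 and 0.000226).

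Among the p53 family, Trp63, whose product p63 marks basal epithelium and also activates Perp, was lower in ATC than in normal by -3.24 and than in PTC by -4.47 (limma adjusted p = 0.0078 and 0.00351). Its other probe sets gave -0.13 and -0.27 for ATC against normal, and -0.18 and -0.09 for ATC against PTC, none of them called. Trp73 was not called in any comparison, with differences from normal of -0.31, -0.23 and -0.18. Of 9 desmosome genes, the partners of Perp at the junction, 1, 2 and 3 were called in PTC, ATC and recurrent tumours against normal. These are 11.1%, 22.2% and 33.3%, near or below the share of all genes (14.2%, 34.3% and 33.8%). The call in PTC was a rise, Jup by 1.68 (limma adjusted p = 0.00684). In ATC Pkp1 rose by 3.78 and Pkp2 was lower by -1.46 (limma adjusted p = 0.00267 and 0.0131), and in recurrent tumours all 3 were lower. Of these 3, Dsp (-2.61, limma adjusted p = 0.044) was called in only 4 of 15 fits without 1 array. With the 2 groups alone it was not called (limma adjusted p = 0.116). Dsg2, a desmosomal cadherin, averaged 11.68 ± 0.21 (SD, n = 6) on normal arrays and 7.02 ± 1.87 (SD, n = 9) on recurrent ones, a difference of -4.65 (limma adjusted p = 6.27e-06). It was also lower in recurrent tumours than in ATC, by -3.40 (limma adjusted p = 0.00344), and in a fit of those 2 groups alone this was not called (limma adjusted p = 0.0812).

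Of 6 close relatives of the members, 3, 5 and 3 were called in PTC, ATC and recurrent tumours against normal (50%, 83.3% and 50%, against 14.2%, 34.3% and 33.8% of all genes). Sesn1, counted above among the metabolism and redox targets, is among those called in each of these comparisons. Trp53inp2, the autophagy-linked relative of Trp53inp1, was lower in every tumour group, by -2.35, -1.84 and -1.44 (limma adjusted p = 0.000164, 0.000301 and 0.000816). Phlda2, a relative of Phlda3, rose by 2.07 in PTC and 2.17 in ATC (limma adjusted p = 0.0237 and 0.00496), and the call in PTC was lost without PTC 2, 3 or 4 (limma adjusted p up to 0.0735).

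Some calls on these pathway genes did not hold within the JK series. ATC against normal was there 1.13 for Plk3, -1.09 for Sesn1 and -2.35 for Trp63 (limma adjusted p = 0.160, 0.0863 and 0.0823), and recurrent tumours against normal were -0.70 for Cd82 (limma adjusted p = 0.0621). With the mean of all probe sets, Rap2b in PTC against normal was 0.60 and Chek1 in ATC against normal 0.39 (limma adjusted p = 0.122 and 0.0544). With the bare-number titles as a block Ppm1d in recurrent tumours against normal was 0.54 (limma adjusted p = 0.0754).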

How the data were processed

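The authors deposited log2 intensities of 22690 probe sets, produced by RMA, which subtracts background, quantile normalizes and summarizes probes, with Partek, per the submitters' processing notes. Tool versions: not given in the sources used here. Quantile normalization hides a shift common to all genes, and very high levels are compressed. Gene symbols of probe sets came from GEO's platform annotation (20393 with 1 symbol, 691 with several, 1606 with none), with symbols updated from RefSeq (GRCm38.p6, 20364 matched). Where a gene had several probe sets, the brightest on average was used, and other probe sets of the members were fitted separately.

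Groups came from the tissue label. Of 276 pairs of arrays 0 were identical. limma 3.58.1, run in R 4.3.3 beside jsonlite 2.0.0 and the package data.table (version 1.17.8), fitted 4 group means to 24 arrays, with Benjamini-Hochberg adjustment over 12394 genes, and was tested on simulated data. Exact permutation tests, motif search and figures used Python 3.11.15, SciPy 1.17.1, pandas 2.3.3, numpy 2.4.6 and matplotlib 3.10.9. Genes named are the members and, of each pathway list in each comparison, up to 3 called genes with the largest difference, of which the text gives a part, plus the 3 genes most like Cdkn1a and Mdm2; Bbc3, Btg2, Gadd45a, Zmat3, Mdm4 and Trp73, outside that rule, were looked up after the results were seen. The members and lists were chosen with earlier results of these data known.

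Alternatives were each comparison's 2 groups alone, title series or bare-number titles as a block, the JK series alone, means of probe sets, a filter at log2 6, quantile normalization again, array weights and fits without 1 array. Other probe sets were an alternative added after seeing the data, as was leaving out normal pool 5 with recurrent arrays 2 and 3.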

Additional observations from a re-analysis of the deposited data

Results flagged for a closer look

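Among 52 groups of arrays examined for a single array far from the rest, 1 was found, Perp in ATC, where ATC 4 lay at 10.04 on the log2 scale and the other 4 between 11.23 and 11.63; chance gives about 1 in 20. ATC 4 also had the highest thyrocyte marker mean of the ATC, 8.10, and the relation of the 2 values was not tested.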

How the results depend on the processing

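With each comparison's 2 groups alone, members called numbered 4, 4, 1, 5 and 0 in PTC, ATC and recurrent tumours against normal, ATC against PTC and recurrent tumours against ATC. All genes called numbered 5676, 6317, 3148, 4587 and 99 in the same order, against 1758, 4245, 4194, 2127 and 535 in the main fit. The other targets called were 22 in PTC against normal, 20 in ATC against PTC and 0 in recurrent tumours against ATC. Array weights gave 3 members, 24 other targets and 6370 genes in PTC against normal, 4 members and 7357 genes in ATC against normal, 5 members, 27 other targets and 6318 genes in ATC against PTC, and 1360 genes in recurrent tumours against ATC. The JK series alone gave 2 members, 16 other targets and 3156 genes in PTC against normal, 2 members and 1960 genes in ATC against PTC and 933 genes in recurrent tumours against ATC. Without normal pool 5 and recurrent arrays 2 and 3, 12 other targets and 2591 genes were called in PTC against normal and 4 members and 5124 genes in ATC against normal. That setting gave 2 members and 3084 genes in ATC against PTC and 1231 genes in recurrent tumours against ATC. ATC against PTC had 2 members, Sesn2 and Trp53inp1, with the title series or the bare-number titles as a block, means of probe sets, the filter on dim genes or quantile normalization again. All genes called there numbered 1932 to 2292. Quantile normalization again left 1 member in recurrent tumours against normal, beside 4322 genes. The cause was not tested.

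Leaving out 1 array gave, for PTC against normal, 1 member, 5 to 8 other targets and 1182 to 1768 genes; for ATC against normal 2, 16 to 19 and 3586 to 4102; for recurrent tumours against normal 1 to 2, 18 to 24 and 3578 to 4849; for ATC against PTC 1, 6 to 8 and 1345 to 2115; and for recurrent tumours against ATC 0, 1 to 3 and 286 (without ATC 3) to 844 (without recurrent array 2).

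Signs turned only for differences not called in the main analysis, leaving aside other probe sets of named genes outside the members. Some of those probe sets went against a called difference, as for Aen, Chek1 and Tap1 in ATC against normal. With the title series as a block, PTC against normal was 0.091 for Ccng1 and -0.086 for Sesn2; Sesn2 was also -0.0047 in the JK series, -0.016 by means of probe sets and -0.12 by its other probe set. ATC against normal was -0.016 for Perp with bare-number titles as a block. ATC against PTC was 0.11 and 0.13 for Ccng1 by its other probe sets. Recurrent tumours against normal were 0.048 for Phlda3 in the JK series, 0.42, 0.040 and 0.92 for Mdm2 by means of probe sets, array weights and its other probe set, 0.067 for Ccng1 and 0.13 for Trp53inp1 by other probe sets. Recurrent tumours against ATC were -0.90 for Ccng1 and 0.16 for Phlda3 in the JK series, 0.20 for Phlda3 with array weights, 0.11, 0.31 and 0.22 for Trp53inp1 by means of probe sets, its other probe set and without the 3 arrays, and -0.019 for Sesn2 without them. Leaving out 1 array, ranges that crossed 0 were -0.0054 to 0.19 for Sesn2 in PTC against normal, -0.21 to 0.059 for Mdm2 in recurrent tumours against normal, and, in recurrent tumours against ATC, -0.19 to 0.16 for Phlda3, -0.15 to 0.35 for Ccng1 and -0.28 to 0.048 for Trp53inp1. Under settings other than leaving out an array, 1224 values kept direction and call, 36 became called, 75 lost the call and 21 changed sign. Other probe sets entered these counts for the members only.

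No paired analysis was possible because replicate numbers were given in the order of the sample records and match no sample of one group to one of another.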
